A study of Mus musculus with 36 samples.

Results

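The levels of 10 genes of enterocyte lipoprotein and fatty acid handling were followed in mouse intestinal organoids, the genes being Apoa1, Apoa4, Apob, Apoc3, Mttp, Fabp1, Fabp2, Dgat1, Dgat2 and Cd36. They were picked by name for their role, with earlier results of these data known, and each was matched to its Ensembl identifier. They make up 10 of the 52636 genes listed per library and 10 of the 15497 that passed the expression filter. A gene with a mean under 0.5 CPM (counts scaled by TMM to the same library total, as in all levels given here) over all libraries was to be reported as not detected, and none of the 10 fell under it.

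Organoids are epithelial cultures grown in Matrigel from crypts, here from the jejunum of C57BL/6 mice, and RNA was sequenced from 36 cultures in 6 groups of 6 replicates. With control IgG there were the groups complete media + IgG, QCM + IgG, SCM + IgG and Wnt5a + IgG, and with the antibody to Ptk7 the groups SCM + anti-Ptk7 and Wnt5a + anti-Ptk7. QCM and SCM are serum-free media conditioned by quiescent or senescent mouse embryonic fibroblasts, concentrated and mixed into the complete organoid medium (IntestiCult), and Wnt5a, a ligand of noncanonical Wnt signaling, was added to complete medium. All cultures received an antibody, either control IgG or one against the Wnt co-receptor Ptk7, and were kept 2 days in their medium. Anti-Ptk7 in complete media alone was not analysed here, and the age of the mice and the agent that made the fibroblasts senescent are not given in the labels of these samples. The crypts came from 6 mice, but no label ties a replicate number to a mouse, so p-values measure the spread between these libraries.

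Enterocytes take up fatty acids from the lumen, bind them in the cytosol with the fatty acid-binding proteins Fabp1 and Fabp2, and esterify them to triglyceride, the last step being carried out by the acyltransferases Dgat1 and Dgat2. The microsomal transfer protein Mttp loads the triglyceride onto apolipoprotein B, the scaffold of the chylomicron, and Apoa1, Apoa4 and Apoc3 are carried on its surface. Cd36 is a fatty acid translocase at the cell membrane that is abundant in the proximal small intestine. In bulk RNA, fewer cells of a type and less RNA per cell cannot be told apart.

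The total per library lay between 9581589 and 21029769 counts, TMM scaling factors lay between 0.908 and 1.03, and mitochondrial genes held 0.282% to 0.914% of the counts. Within a group, the counts of replicate pairs differed with a chi-square of at least 7.28 per gene, and none were counted as repeats. Over all genes tested, libraries deviated from their group by a root mean square of 0.367 to 0.688 on the log2 scale. Replicate 1 deviated most in SCM + IgG (0.688), Wnt5a + IgG (0.607) and Wnt5a + anti-Ptk7 (0.569), and results without the 6 libraries numbered 1 are given where a call changed.

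Of the members, 8 had a mean over 100 CPM, and Apoc3 and Cd36 were scarce. Divided by the exon length of each gene in the GENCODE annotation of GRCm38, the mean level over the 36 libraries was 818 ± 279 (SD) CPM per kilobase for Fabp1, 344 ± 75.9 for Fabp2, 303 ± 98.6 for Apoa1 and 212 ± 66.6 for Apoa4. It was 72.7 ± 10.1 CPM per kilobase for Mttp, 58.9 ± 7.38 for Dgat1, 55.0 ± 17.1 for Dgat2 and 45.3 ± 19.3 for Apob, which has the longest transcript of the 10 with 13934 exon bases. Apoc3 reached 10.4 ± 4.29 and Cd36 0.524 ± 0.342 CPM per kilobase. The means of Dgat1, Dgat2 and Apob thus lay within the spread of Apob, and the mean of Cd36 was the lowest of the 10. These levels depend on the length used: per kilobase of coding length, in which the reads are stated to have been counted, 9 of the 10 moved by more than their SD, among them Fabp2 to 838 and Mttp to 162 CPM per kilobase, and Dgat1 and Dgat2 changed places.

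The apolipoprotein genes Apoa1, Apoc3 and Apoa4 are neighbours. In GRCm38, Apoa1 lies at chr9:46228580-46230466 on the plus strand, Apoc3 at chr9:46232933-46235636 on the minus strand and Apoa4 at chr9:46240696-46243459 on the plus strand, with gaps of 2466 and 5059 bases between them. Apoa5, the fourth gene of this cluster, begins 25173 bases after Apoa4 and was listed at 0 in all 36 libraries. Apob lies at chr12:7977648-8016835, Mttp at chr3:138089854-138144968, Fabp2 at chr3:122895072-122899506, Fabp1 at chr6:71199827-71205023, Dgat1 at chr15:76502015-76511953, Dgat2 at chr7:99153658-99182719 and Cd36 at chr5:17781690-17888801. The library kit does not mark the strand, and a pair of opposite-strand genes, Gm47528 and Gm10680, shares 634 and 632 exon bases with Apoa4. They held up to 25.5% and 42.7% of the count of Apoa4 in the same library, and reads of Apoa4 and of these genes cannot be told apart. Mttp shares 457 exon bases with the opposite-strand gene Trmt10a and 132 with Gm43691, which held between 1.01% and 5.68% of the count of Mttp.

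The first question was whether media from senescent fibroblasts change these genes relative to complete media. In SCM, 4 of the 10 members were called higher and 0 lower by the quasi-likelihood test of edgeR, the call requiring both an adjusted p below 0.05 and a change of more than 1.5-fold. Of all 15497 genes tested, 4.96% were called higher and 1.12% lower in this comparison. The genes were the cytosolic binding protein Fabp1, the surface apolipoproteins Apoa4 and Apoa1, and the scaffold Apob. The median log2 fold change was 0.62 over the 10 members and 0.01 over all genes tested.

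Among the surface apolipoproteins, Apoa4 lay between 181 and 303 CPM in complete media (median 207) and between 419 and 613 CPM in SCM (median 496), so that no library of the groups overlapped. Its log2 fold change was 1.15 ± 0.167 (SE), a 2.22-fold rise (edgeR adjusted p = 1.26e-05). Apoa1 lay between 224 and 430 CPM in complete media (median 266) and between 444 and 604 CPM in SCM (median 498). The highest library of complete media was thus just below the lowest of SCM, and the log2 fold change was 0.72 ± 0.158 (edgeR adjusted p = 0.00205). Apoc3, which inhibits lipoprotein lipase in plasma, lay between 6.23 and 14.4 CPM in complete media and between 8.47 and 18.7 in SCM. These ranges overlapped, and its log2 fold change of 0.29 had a 95% interval from -0.31 to 0.90.

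The scaffold was called higher and its loading factor was not. Apob lay between 240 and 436 CPM in complete media (median 358) and between 480 and 721 CPM in SCM (median 592). Every SCM library was above every library of complete media, with a log2 fold change of 0.77 ± 0.192 (edgeR adjusted p = 0.0068). Mttp lay between 391 and 571 CPM in complete media and between 296 and 523 CPM in SCM, and the ranges overlapped widely. Its log2 fold change was -0.14, with a 95% interval from -0.38 to 0.10, which leaves out a change of 1.5-fold in either direction.

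Fabp1 lay between 201 and 269 CPM in complete media (median 256) and between 410 and 600 CPM in SCM (median 510). The groups did not overlap, and the rise was 2.13-fold (log2 fold change 1.09 ± 0.153, edgeR adjusted p = 7.71e-06). Its relative Fabp2 lay between 332 and 499 CPM in complete media and between 290 and 426 CPM in SCM. The groups overlapped and the log2 fold change of Fabp2 was -0.02, with a 95% interval from -0.30 to 0.26. The windows before the start sites of this pair and of Apob, the called scaffold gene, are shown to set a gene that rose beside one that was not called. They come from RefSeq for GRCm38.p6, on the plus strand, and bases that GENCODE places in an exon are left out.
Fabp1, chr6:71199629-71199826: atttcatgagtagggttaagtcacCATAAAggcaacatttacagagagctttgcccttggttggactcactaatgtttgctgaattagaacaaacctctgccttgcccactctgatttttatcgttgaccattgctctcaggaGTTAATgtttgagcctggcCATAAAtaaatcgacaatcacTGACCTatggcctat
Fabp2, chr3:122894822-122895071: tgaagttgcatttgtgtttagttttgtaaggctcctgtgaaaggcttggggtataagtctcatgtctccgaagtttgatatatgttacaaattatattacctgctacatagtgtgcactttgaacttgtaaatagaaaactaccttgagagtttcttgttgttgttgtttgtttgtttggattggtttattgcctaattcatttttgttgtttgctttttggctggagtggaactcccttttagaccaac
Apob, chr12:7977427-7977647: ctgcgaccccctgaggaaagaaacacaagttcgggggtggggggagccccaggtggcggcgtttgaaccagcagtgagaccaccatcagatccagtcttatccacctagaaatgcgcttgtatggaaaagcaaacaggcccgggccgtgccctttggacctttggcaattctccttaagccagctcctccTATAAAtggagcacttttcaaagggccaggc
Capitals mark matches to motifs that were searched on both strands of the 250 bases before each RefSeq start site. These were the CDX core TTTATG, the HNF1 half-site GTTAAT, the nuclear receptor half-site AGGTCA, the HNF4 core CAAAGTCCA, the GATA motif AGATAA, the TEAD core GGAATG and the TATA box TATAAA. The window of Fabp1 held the CDX core at 226 and 88 bases before the RefSeq start site, the HNF1 half-site at 107 and the nuclear receptor half-site at 67, with a further half-site at 9 and a TATA box at 30 in the part not shown. Among 32851 RefSeq promoters, these motifs were found in 10.8% (CDX core), 6.43% (HNF1 half-site), 14% (nuclear receptor half-site) and 12.4% (TATA box). Fabp2 held none of the 7 motifs and Apob held the TATA box at 60 bases before its start. Of the other members with a RefSeq window, Apoa4 held the TEAD core, present in 12.6% of promoters, in bases that GENCODE places in an exon, and Cd36 the CDX core and the nuclear receptor half-site, while Apoa1 and Mttp held none. Windows of Apoc3, Dgat1 and Dgat2 were not used here.

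Of the triglyceride-forming enzymes, Dgat2 and not Dgat1 passed the adjusted p. Dgat2 lay between 103 and 130 CPM in complete media (median 113) and between 148 and 190 CPM in SCM (median 162), with no overlap. Its log2 fold change of 0.53 ± 0.144 passed the adjusted p (edgeR, 0.0133) but, at 1.44-fold, not the fold change of 1.5. Dgat1 lay between 160 and 204 CPM in complete media and between 137 and 198 CPM in SCM, and its log2 fold change was -0.05, with a 95% interval from -0.24 to 0.14. Counting Dgat2, the libraries of SCM and complete media did not overlap for 5 of the 10 members, all higher in SCM, against 3.76% of all genes tested.

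Cd36 was near the lower limit, with 0 to 67 counts per library over the 36 libraries. It lay between 0 and 3.10 CPM in complete media and between 0.837 and 4.23 CPM in SCM. The log2 fold change of 1.19 had a 95% interval from -0.07 to 2.44 (edgeR adjusted p = 0.253), and no change was called. In complete media the SD of Cd36 was 104% of its mean. How far low counts or the spread between libraries widened the interval was not tested. The count was 0 in complete media + IgG replicate 2 and SCM + anti-Ptk7 replicate 6, where the 3 counts that a count of 0 allows correspond to 0.282 and 0.280 CPM.

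**Figure D1:**
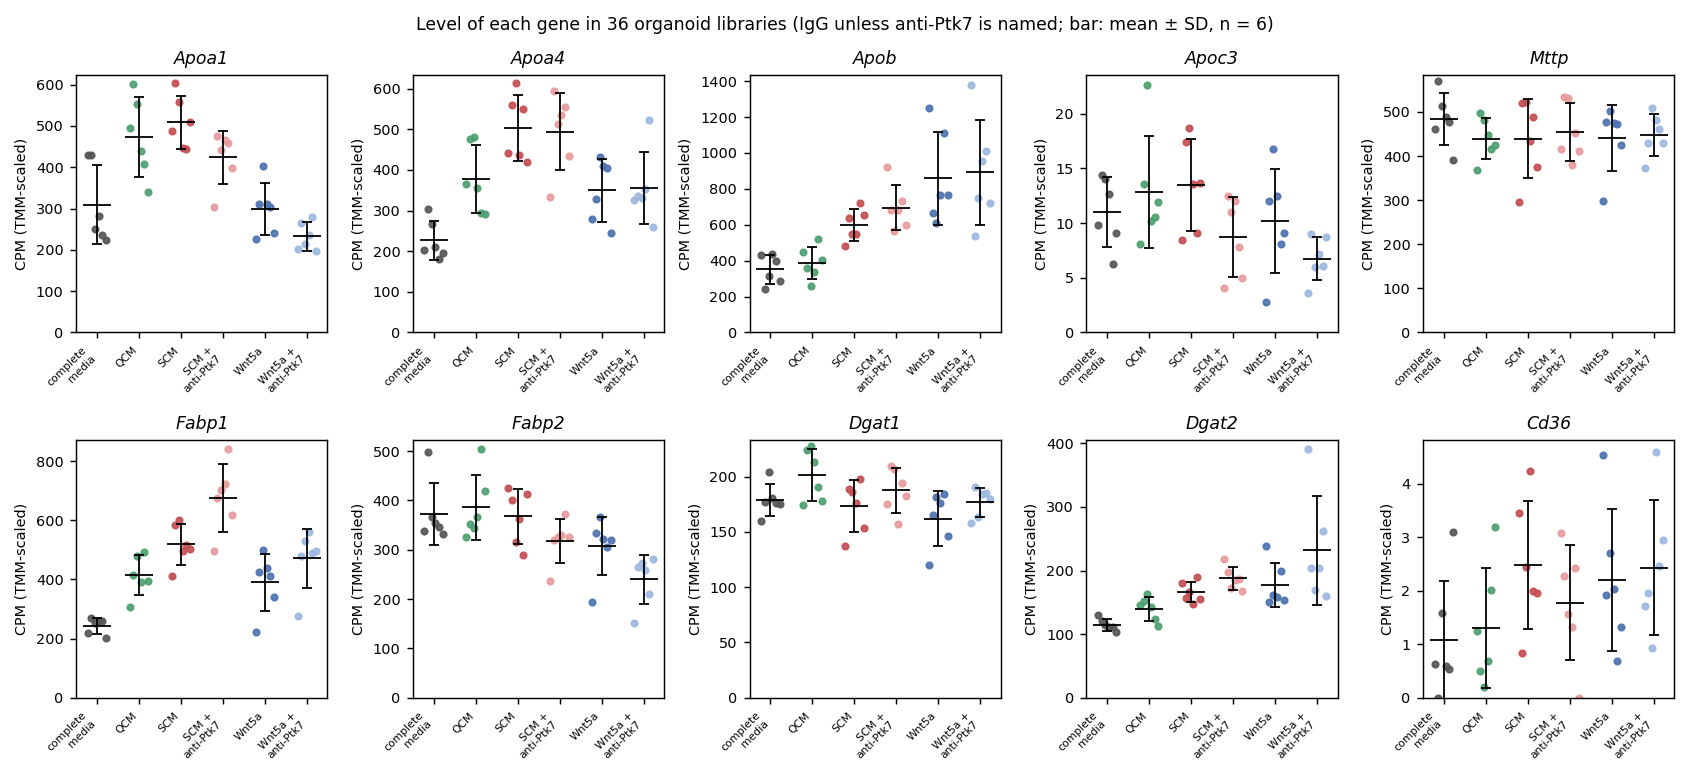
Each panel plots the TMM-scaled CPM (y axis, from 0) of a gene in the 36 libraries by group (x axis), with a point per library and a bar for the mean ± SD of 6 libraries. Apoa4, Apob and Fabp1 lie lower in complete media than in SCM in every library, while the ranges of Mttp and Dgat1 overlap among the 6 groups.

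QCM addresses how far medium of fibroblasts that are not senescent changes the genes. Against complete media, 2 of the 10 members were called higher in QCM, Fabp1 and Apoa4, and 0 were called lower, where 0.355% of all genes tested were called higher and 0.0194% lower. Fabp1 lay between 307 and 493 CPM in QCM (median 405), above every library of complete media (as for 1.38% of all genes tested), and rose by 1.70-fold (log2 fold change 0.76 ± 0.153, edgeR adjusted p = 0.00718). Apoa4 lay between 292 and 482 CPM in QCM (median 361), and its lowest QCM library was below the highest library of complete media. Its log2 fold change was 0.74 ± 0.166 (edgeR adjusted p = 0.0226), and the adjusted p ranged from 0.0137 to 0.109 when each library was left out in turn. The call of Apoa4 was lost without complete media + IgG replicates 1, 4, 5 or 6 and without QCM + IgG replicates 2 or 3.

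Apoa1 lay between 339 and 601 CPM in QCM, with a log2 fold change of 0.61 ± 0.158 that missed the threshold (edgeR adjusted p = 0.0591). It passed without complete media + IgG replicates 1 or 2, without QCM + IgG replicate 6, and without the 6 libraries numbered 1 (edgeR adjusted p = 0.00991). Apob in QCM lay between 259 and 519 CPM and overlapped complete media, with a log2 fold change of 0.14 (95% interval -0.24 to 0.51). For the remaining 6 members, the log2 fold change between QCM and complete media lay between -0.14 for Mttp and 0.28 for Dgat2, and their adjusted p was 0.437 or more.

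When SCM was compared with QCM directly, 0 of the 10 members were called by edgeR, where 0.903% of all genes tested were called in either direction. Of the members, 4 had an unadjusted p under 0.05, namely Apob, Apoa4 and Fabp1, which were higher in SCM, and Dgat1, which was lower. Apob had a log2 fold change of 0.63 ± 0.192 (edgeR adjusted p = 0.0749), with 480 to 721 CPM in SCM and 259 to 519 CPM in QCM. DESeq2 called it (adjusted p = 0.0314), voom with limma called 0 members, and edgeR called it without QCM + IgG replicate 5 (adjusted p = 0.0437) and without the 6 libraries numbered 1 (adjusted p = 0.0186). The log2 fold change from QCM to SCM was 0.41 ± 0.165 for Apoa4, 0.33 ± 0.151 for Fabp1 and -0.22 ± 0.0971 for Dgat1, with edgeR adjusted p between 0.182 and 0.261.

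The question for Wnt5a was whether this ligand alone changes the genes. Against complete media, 4 of the 10 members were called higher and 0 lower, where 8.29% of all genes tested were called higher and 1.88% lower, and the genes were Apob, Fabp1, Dgat2 and Apoa4. The comparisons of QCM, SCM and Wnt5a share the 6 libraries of complete media. Apob lay between 607 and 1250 CPM with Wnt5a (median 763), so that its lowest library was above the highest of complete media, and the rise was 2.45-fold (log2 fold change 1.29 ± 0.194, edgeR adjusted p = 1.03e-05). Dgat2 lay between 151 and 239 CPM (median 160), again with no overlap, and had a log2 fold change of 0.62 ± 0.144 (edgeR adjusted p = 0.00183). Libraries did not overlap for these 2 members, against 6.85% of all genes tested that were higher without overlap.

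Fabp1 lay between 222 and 501 CPM with Wnt5a (median 419), with the library numbered 1 inside the range of complete media, and its log2 fold change was 0.68 ± 0.152 (edgeR adjusted p = 0.0013). Apoa4 lay between 244 and 432 CPM (median 366) with a log2 fold change of 0.62 ± 0.166 (edgeR adjusted p = 0.00606). Both Apoa4 and Dgat2, at 1.54-fold, were close to the cutoff of 1.5. The call of Apoa4 was lost without complete media + IgG replicates 5 or 6 or Wnt5a + IgG replicates 3, 4 or 5, where its lowest log2 fold change was 0.56. The call of Dgat2 was lost without complete media + IgG replicate 6 or Wnt5a + IgG replicates 1 or 5, with 0.52 as its lowest value, without the 6 libraries numbered 1 (0.56), and by voom with limma (0.57). Apoa1, which rose in SCM, lay between 225 and 402 CPM with Wnt5a and had a log2 fold change of -0.04 (95% interval -0.35 to 0.27). Fabp2 lay between 194 and 366 CPM, with a log2 fold change of -0.28 ± 0.142 (edgeR adjusted p = 0.161), and Mttp, Dgat1 and Apoc3 lay between -0.14 and -0.11. Cd36 lay between 0.693 and 4.53 CPM, with a 95% interval of its log2 fold change from -0.25 to 2.25.

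The direct comparison of Wnt5a with SCM called 1 of the 10 members, Apoa1, which was lower with Wnt5a, where 0.394% of all genes tested were called lower. Its 6 Wnt5a libraries, 225 to 402 CPM, were all below the 6 SCM libraries, 444 to 604 CPM, a separation in this direction that 1.57% of all genes tested had. The log2 fold change was -0.76 ± 0.158 (edgeR adjusted p = 0.0123), and the call was lost without Wnt5a + IgG replicate 1 (adjusted p = 0.0531). Apob was higher with Wnt5a by 0.53 ± 0.191 on the log2 scale and Apoa4 and Fabp1 were at -0.53 ± 0.165 and -0.41 ± 0.152, with edgeR adjusted p between 0.0727 and 0.127.

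**Figure D2:**
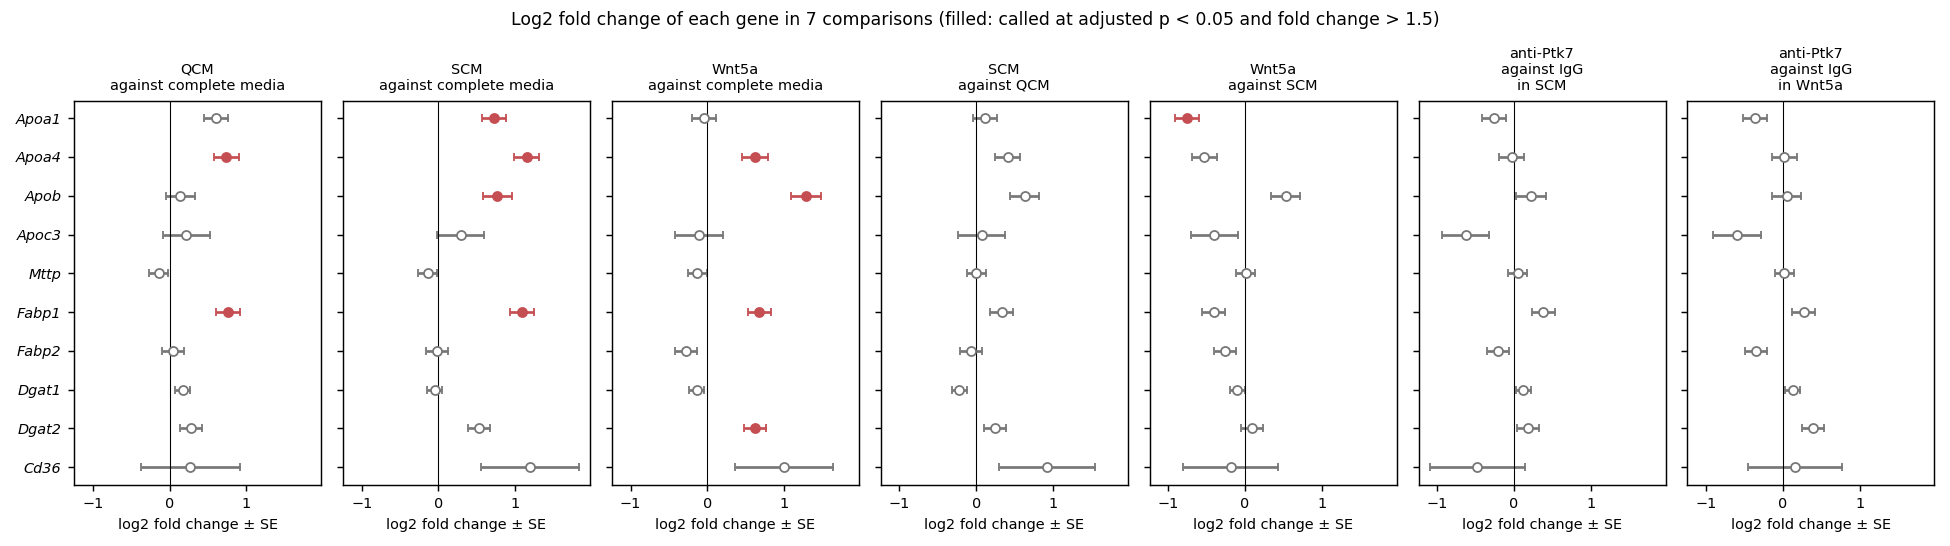
Each panel plots, for a comparison, the log2 fold change (x axis) of the 10 genes (y axis) with its standard error, and filled red points mark called genes (adjusted p below 0.05, change above 1.5-fold). Filled points occur in the 3 panels against complete media and for Apoa1 in Wnt5a against SCM, and no point is filled in the panels of anti-Ptk7.

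Anti-Ptk7 was compared with IgG within SCM and within Wnt5a. In SCM, edgeR, voom with limma and DESeq2 each called 0 of the 10 members, where edgeR called 1.23% of all genes tested, and 2 members had an unadjusted p under 0.05 by edgeR. Fabp1 lay between 495 and 840 CPM with the antibody (median 689) and between 410 and 600 CPM with IgG (median 510), with a log2 fold change of 0.38 ± 0.151 (edgeR adjusted p = 0.172). Without the 6 libraries numbered 1 its log2 fold change was the same to 2 decimals and the adjusted p was 0.0234, at a fold change still under 1.5. Apoc3 lay between 4.09 and 12.5 CPM with the antibody and between 8.47 and 18.7 CPM with IgG, with a log2 fold change of -0.63 ± 0.309 (edgeR adjusted p = 0.292). Apoa4 and Apob, which were higher in SCM than in complete media, had 95% intervals of the antibody effect from -0.35 to 0.30 and from -0.15 to 0.59.

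With Wnt5a, each of the 3 tools again called 0 of the 10 members, where edgeR called 0.884% of all genes tested, and 3 members had an unadjusted p under 0.05 by edgeR. Dgat2 lay between 160 and 391 CPM with anti-Ptk7 and between 151 and 239 CPM with IgG (log2 fold change 0.39 ± 0.143, edgeR adjusted p = 0.153). Fabp2 lay between 151 and 281 CPM with the antibody and between 194 and 366 CPM with IgG (log2 fold change -0.35 ± 0.142, edgeR adjusted p = 0.202). Apoa1 lay between 198 and 280 CPM with the antibody, with a log2 fold change of -0.36 ± 0.158 (edgeR adjusted p = 0.248). For Apob the 95% interval of the antibody effect ran from -0.32 to 0.43. The antibody effect in Wnt5a less that in SCM was not called for any member by any of the 3 tools, with 0 unadjusted p under 0.05 by edgeR and 0% of all genes tested called. It lay between -0.17 for Apob and 0.64 for Cd36, and the widest interval, that of Cd36, ran from -1.07 to 2.34.

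Over the 6 groups, the order of the levels was gene-specific. Apob was ordered from complete media, with a mean of 351 ± 82.5 CPM (SD, n = 6), through 387 ± 90.4 in QCM, 598 ± 87.9 in SCM and 696 ± 126 in SCM + anti-Ptk7 to 861 ± 261 in Wnt5a and 893 ± 294 in Wnt5a + anti-Ptk7. Fabp1 was lowest in complete media, at 244 ± 27.5 CPM, and highest in SCM + anti-Ptk7, at 676 ± 115 CPM. Apoa1 was highest in SCM, at 508 ± 63.1 CPM, and lowest in Wnt5a + anti-Ptk7, at 233 ± 34.2 CPM. Mttp kept between 439 ± 46.6 CPM in QCM and 484 ± 59.4 CPM in complete media. For all 10 members, the ranges of every pair of groups next to each other in this order overlapped, so that neighbouring groups were not separated by their libraries. Together the 10 genes held 0.232% ± 0.0228 of all counts in complete media, 0.282% ± 0.0207 in QCM, 0.328% ± 0.0321 in SCM and 0.295% ± 0.0282 in Wnt5a. Their share was 0.349% ± 0.0285 in SCM + anti-Ptk7, the highest of the groups, and 0.303% ± 0.0272 in Wnt5a + anti-Ptk7.

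Because related genes are counted in the same library, the ratio of their counts does not depend on scaling. These ratios were chosen after the values were seen and are given without a test. The ratio of Fabp1 to Fabp2 lay between 0.538 and 0.746 in complete media (median 0.668) and between 0.941 and 1.39 in QCM (median 1.02). It lay between 0.962 and 1.91 in SCM (median 1.40) and between 1.07 and 1.37 in Wnt5a (median 1.31). With anti-Ptk7 it reached 1.90 to 2.25 in SCM and 1.77 to 2.31 in Wnt5a. The library with the highest ratio in complete media was thus below every library of the other groups, and in Wnt5a the antibody cultures all lay above the IgG cultures. The ratio of Apob to Mttp had a mean of 0.738 ± 0.195 in complete media, 0.901 ± 0.283 in QCM, 1.39 ± 0.262 in SCM and 2.10 ± 1.11 in Wnt5a. The ratio of Dgat2 to Dgat1 had a mean of 0.648 ± 0.0905 in complete media, 0.698 ± 0.073 in QCM, 0.974 ± 0.182 in SCM and 1.14 ± 0.429 in Wnt5a. For Apoa4 to Apoa1 it was 0.772 ± 0.196 in complete media, 0.996 ± 0.150 in SCM and 1.17 ± 0.139 for Wnt5a, and 1.52 ± 0.221 in Wnt5a + anti-Ptk7.

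**Figure D3:**
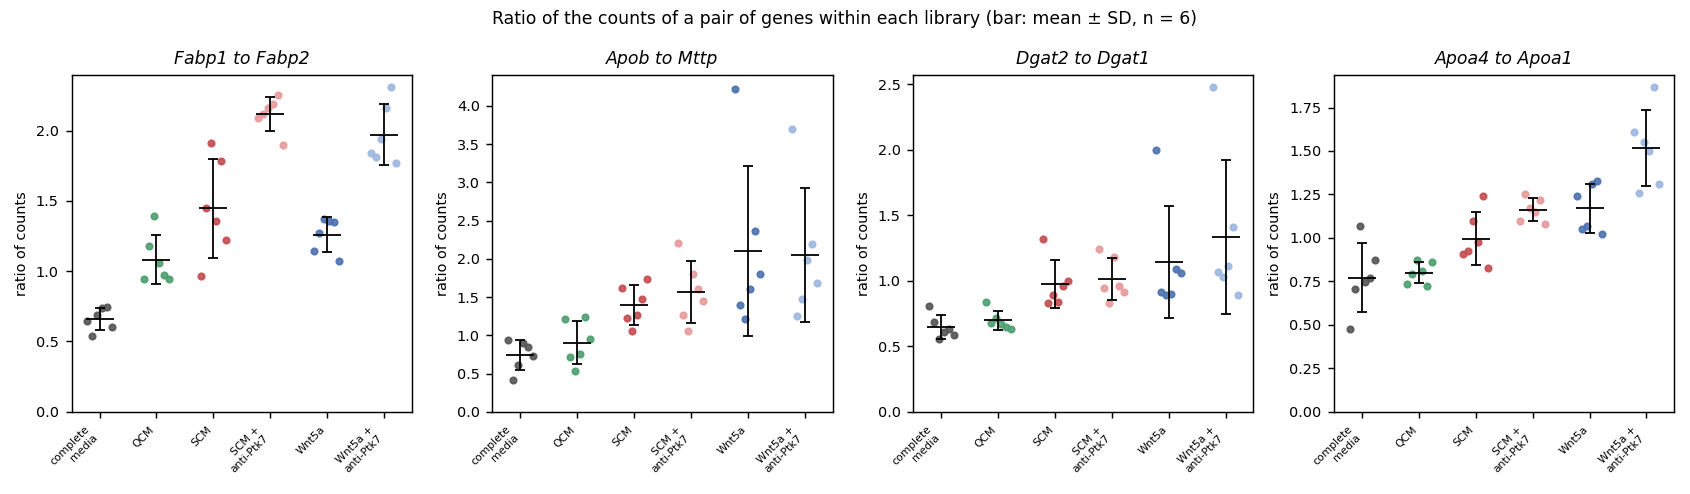
The panels plot the ratio of the counts of 2 genes in the same library (y axis, from 0) by group (x axis), with a point per library and a bar for the mean ± SD of 6 libraries. The 6 libraries of complete media, at 0.538 to 0.746, lie below all others for Fabp1 to Fabp2.

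The balance of long and short genes differed between libraries and moved with some of these results. It was measured, after the values were seen, as the mean log2 CPM of the 1244 protein-coding genes with 9818 or more exon bases minus that of the 1246 with 1751 or fewer, the members left out. This difference was 0.682 ± 0.126 (SD, n = 6) in complete media, 0.431 ± 0.0935 in QCM, 0.523 ± 0.130 in SCM and 0.871 ± 0.155 in Wnt5a. It was 0.714 ± 0.203 in SCM + anti-Ptk7 and 1.00 ± 0.184 in Wnt5a + anti-Ptk7. The groups of Wnt5a, 0.721 to 1.12, and SCM, 0.274 to 0.633, did not overlap. With group means removed, its correlation over the 36 libraries was 0.62 with Apob (13934 exon bases), 0.46 with Dgat2 (3083), -0.46 with Fabp1 (553), -0.45 with Apoa1 (1236) and -0.71 with Fabp2 (965), against 0.05 with Mttp (6206) and -0.12 with Apoa4 (1815). The members and the length classes are read from the same libraries, and these values are descriptive.

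With this difference as a covariate in the edgeR model, SCM against complete media still had Apob (log2 fold change 0.99), Apoa4 (1.12), Fabp1 (0.96) and Apoa1 (0.60) called higher, and Dgat2 (0.66, adjusted p = 0.000774) was called as well. In Wnt5a against complete media Apob (1.00), Fabp1 (0.81) and Apoa4 (0.66) were called, and Dgat2, at 0.45 (adjusted p = 0.0269), was under the fold change of 1.5. In QCM 0 members were called, with Fabp1 at 0.55 (adjusted p = 0.123) and Apoa4 at 0.68 (adjusted p = 0.095). The lower level of Apoa1 in Wnt5a than in SCM was no longer called (-0.47, adjusted p = 0.986), and Apob was at 0.01 in that comparison in place of 0.53. In this comparison the balance and the group cannot be told apart. How far the covariate takes up a treatment effect that goes along with the balance was not tested.

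**Figure D4:**
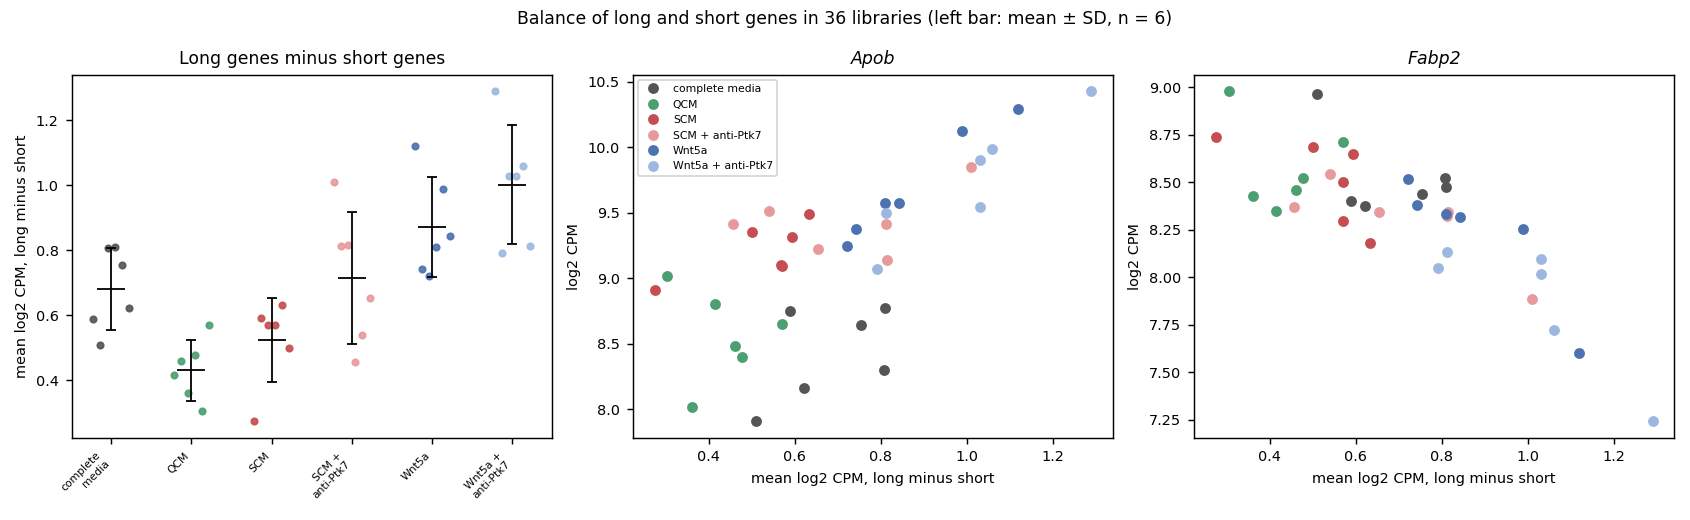
The left panel plots the mean log2 CPM of long genes minus that of short genes (y axis) by group (x axis), with a point per library and a bar for the mean ± SD of 6 libraries, and the other panels plot the log2 CPM of Apob and Fabp2 (y axis) against this difference (x axis), with a point per library coloured by group. Libraries with a high difference, most of them of the Wnt5a groups, hold more Apob and less Fabp2.

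Within groups, the members varied in opposing sets. After removal of the group means, the highest correlations over the 36 libraries were 0.83 between Mttp and Dgat1, 0.76 between Apoc3 and Fabp1, and 0.73 both between the cluster neighbours Apoa1 and Apoa4 and between Mttp and Fabp1. Fabp1 and Fabp2 had a correlation of 0.71 within groups and 0.09 with the group differences left in. The lowest were -0.73 between Fabp2 and Dgat2 and -0.63 between Apob and Apoc3. Apob and Dgat2 had 0.50 with each other, and neither of them was positively correlated within groups with Mttp, Fabp1, Fabp2, Apoc3 or Dgat1. Each pair of values comes from the same library, so that both genes share its depth and its length balance, and the correlations carry no test.

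**Figure D5:**
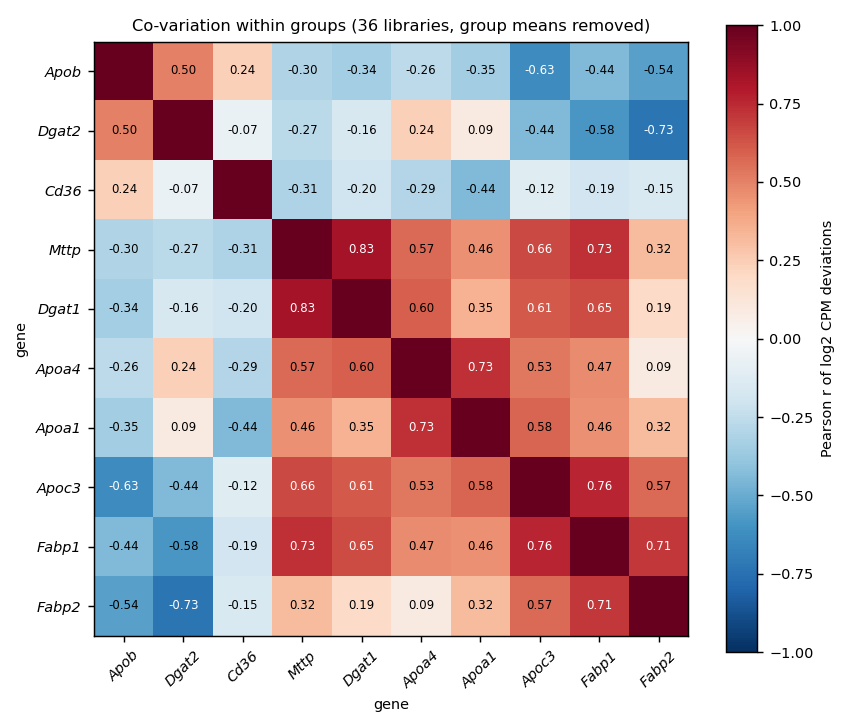
The grid gives the Pearson correlation of log2 CPM between each pair of genes (both axes) over 36 libraries after subtraction of the group means, coloured from -1 (blue) to 1 (red). Mttp, Dgat1, Apoa4, Apoa1, Apoc3 and Fabp1 form a block of positive values up to 0.83, and Apob and Dgat2 are negative to most of it.

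Outside the list, the gene most like each member over the 36 libraries differed between members. For Fabp1 they included Acat1, a mitochondrial thiolase (r = 0.93), and Fth1, the ferritin heavy chain (0.92). For Apob they were Ctnnb1 (0.95), Gm29200 (0.93) and Ctnnd1 (0.92), and for Dgat2 they were Serinc2 (0.94), Cdhr5 (0.93) and Pgm2 (0.93). Apoa4 was followed by its antisense neighbours Gm47528 and Gm10680 (0.99 each), whose reads overlap its own, and then by Acat1 (0.82). Apoa1 was closest to Ms4a10 (0.86), Apoc3 to Smim24 (0.88), Mttp to Ugt1a1 (0.83), Fabp2 to Ostc (0.90) and Dgat1 to Aldh18a1 (0.85). For Cd36 the highest value was 0.66, with Cp.

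The other genes of the pathway were read from 5 lists. Of 11 tested partners in lipoprotein assembly and export, 3 were called higher and 0 lower in SCM against complete media, with a list median of 0.06 on the log2 scale beside 0.01 over all genes. They were Creb3l3, a membrane-bound transcription factor of lipid metabolism (1.32, edgeR adjusted p = 6.14e-06), Apobec1, the enzyme that edits the Apob transcript (0.86, adjusted p = 0.0176), and Plin2, a coat protein of lipid droplets (0.80, adjusted p = 0.00201). The same 3 were called higher with Wnt5a, Plin2 by 1.27, Creb3l3 by 0.89 and Apobec1 by 0.86, and Apoe was called lower (-1.05, adjusted p = 0.0422) from a level of 2.84 ± 0.555 CPM in complete media. In QCM, Creb3l3 alone was called (0.93, adjusted p = 0.00595). Creb3l3 lay between 32.6 and 51.9 CPM in complete media and between 83.3 and 146 CPM in SCM, with no overlap. Apoa5 and Apoc2 did not pass the filter.

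Of 12 tested genes of fatty acid uptake, activation and triglyceride synthesis, 1 was called higher and 1 lower in SCM. These were the acyltransferase Agpat2 (1.09, edgeR adjusted p = 0.00411) and the fatty acid transporter and acyl-CoA synthetase Slc27a2 (-0.64, adjusted p = 0.0381). With Wnt5a, Agpat2 (1.13) and Abhd5, an activator of triglyceride hydrolysis (0.60), were called higher and Slc27a2 (-0.59) lower, and in QCM 0 were called. Of 6 tested genes of sterol uptake and efflux, 0 were called in SCM or QCM, and the cholesterol exporter Abca1 was called with Wnt5a (1.21, adjusted p = 0.0224).

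Among the genes of PPAR-alpha and fatty acid oxidation, Pdk4, a kinase that inhibits pyruvate dehydrogenase, was called lower with Wnt5a (-4.15, edgeR adjusted p = 0.0245). It lay between 0 and 2.57 CPM in complete media and between 0 and 0.386 CPM with Wnt5a, so that both groups were close to the lower limit and overlapped. None of the 10 regulators of enterocyte lipid genes, Hnf4a among them, was called by edgeR in SCM, QCM or Wnt5a against complete media, where 3, 1 and 2 had an unadjusted p under 0.05. In both comparisons of anti-Ptk7 with IgG, 0 genes of the 5 lists were called by edgeR, with 0 to 6 genes per list at an unadjusted p under 0.05 in SCM and 0 to 5 with Wnt5a.

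Markers of the cell types were read beside these values. Of the other enterocyte markers, Alpi (intestinal alkaline phosphatase, 1.26) and Krt20 (1.84) were called higher and Anpep (-1.46) lower in SCM, and with Wnt5a Alpi (1.02) and Krt20 (2.26) were higher and Anpep (-0.91) lower. The summed level of the list lay between 1820 and 2370 CPM in complete media, between 2130 and 2690 in SCM and between 2290 and 3380 with Wnt5a. Alpi was the member of this list called lower with anti-Ptk7, by -0.59 in SCM and -0.72 with Wnt5a. All 5 fetal-like markers were called higher in SCM and with Wnt5a, and their summed level lay between 180 and 861 CPM in complete media, 1220 and 4100 in SCM and 3250 and 9580 with Wnt5a. Of 5 tuft cell markers, 3 were called higher with Wnt5a and 0 in SCM, with summed levels of 7.95 to 14 CPM in complete media and 21.9 to 37.5 CPM with Wnt5a. Of 6 markers of epithelial identity, the keratins Krt8, Krt18 and Krt19 were called higher in SCM, and these and Cdh1 with Wnt5a. Of 5 Paneth cell markers, Ang4 and Mmp7 were called higher in SCM and with Wnt5a. The list median was 0.23 in SCM, with 5 positive log2 fold changes, and -0.11 with Wnt5a, with 2 positive. Of 5 stem cell markers, Smoc2 was called lower in both. The list median was -0.16 in SCM and -0.27 with Wnt5a, and 2 markers, Olfm4 and Ascl2, had a positive log2 fold change in each. Of the 5 markers each of goblet cells, enteroendocrine cells and proliferation, 0 were called by edgeR against complete media in SCM, QCM or Wnt5a. Per list, 0 to 2 of them had an unadjusted p under 0.05. In QCM against complete media, where Fabp1 and Apoa4 were called higher, the called markers were the fetal-like marker Clu (1.91), Alpi (0.86) and Ang4 (0.65), all higher, and the fetal-like sum lay between 381 and 1120 CPM. With anti-Ptk7, the fetal-like marker Ly6a (-1.73 in SCM and -1.55 with Wnt5a) and the enteroendocrine hormone gene Gip (-1.06 and -0.83) were called lower in both media, and the Paneth cell marker Lyz1 (-0.63) with Wnt5a. Between treatments, Clu and Mmp7 were called higher in SCM than in QCM, and Clu and Avil higher with Wnt5a than in SCM. The part of these shifts in the results above was not tested.

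Of the markers of cells from outside the epithelium, those of fibroblasts, endothelium and adipocytes were near 0, and those of leukocytes and hepatocytes only in part. The 5 fibroblast markers summed to 1.25 CPM at most in any library, with Col3a1 and Dcn at 0 throughout, and the 5 markers of endothelium and adipocytes, which also express Cd36, summed to 1.18 CPM at most, with Kdr at 0. Adgre1, a macrophage marker, was at 0 in all libraries and Ptprc had a mean of 0.0775 CPM, while Csf1r (13.9) and Cd68 (1.24) made up nearly all of the 13.2 to 17.8 CPM in complete media and 12.2 to 17.4 CPM in SCM of the 4 leukocyte markers, and neither was called. The hepatocyte markers Alb, Cyp2e1 and Tat had means of 0.256, 0.229 and 0.0199 CPM, and the list's 785 to 3320 CPM came from Cps1 and Ttr, which the intestine also expresses. Fabp6, the fatty acid-binding protein of the ileum, had a mean of 0.0488 CPM, beside the label of jejunum.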

How the data were processed

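Per the labels and the paper's methods, cDNA was made from total RNA with the SMART-Seq v4 kit, which primes on poly(A) tails and does not mark the strand, and libraries were made with Nextera XT. The authors aligned single-end reads with GSNAP through HTSeqGenie to mouse genome build mm10 and deposited the raw read count of each gene, without normalization. Their methods state that reads in coding sequences were counted. The gene annotation and the treatment of strand are not given in the sources used here.

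From the deposited counts of 36 libraries, edgeR 4.0.16 in R 4.3.3 kept 15497 of 52636 genes (filterByExpr), scaled by TMM and applied the quasi-likelihood test in a model with 6 group means. Adjustment (Benjamini-Hochberg) ran over the whole table, and calls needed an adjusted p below 0.05 with a change above 1.5-fold. Intervals are the estimate ± 1.96 SE. Log2 CPM used a prior count of 2. Replicates were grouped by their titles. Alternatives were voom with limma 3.58.1 on quantile-normalized values (the method of the authors), DESeq2 1.42.0, RLE factors, library totals alone, no filter, a fit of the compared groups alone, a block for replicate number, no cutoff on fold change, each library left out in turn, and, chosen after seeing the data, the long-gene against short-gene covariate and leaving out the libraries numbered 1. Tested on simulated data for SCM against complete media, edgeR recovered 159 of 197 changed genes with 4 false calls over 15266 genes. The planted changes were larger than most of those called for the members, so this recovery does not apply to smaller changes. No structure by replicate number or length balance was simulated.

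The members and lists were chosen with earlier results of these data known. The text names every member, up to 3 called genes per direction of each pathway list, the genes most correlated with a member, and the listed markers. Values of some listed genes are not reported here. The limits given for a count of 0 cover counting error only, while the intervals of fold changes rest on the spread between libraries.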

Additional observations from a re-analysis of the deposited data

Results flagged for a closer look

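In 6 of the 60 combinations of gene and group, a library lay farther from the other 5 on the log2 scale than Dixon's 95% limit for 6 values allows, where chance alone gives about 1 in 20. In Wnt5a + IgG, replicate 1 had 297 CPM of Mttp, the others lying between 424 and 501, and 194 CPM of Fabp2, the others lying between 305 and 366. In Wnt5a + anti-Ptk7, replicate 1 had 278 CPM of Fabp1, with the others between 480 and 559. In SCM + anti-Ptk7, replicate 1 had 237 CPM of Fabp2, with the others between 320 and 373, and replicate 6 had 0 CPM of Cd36, with the others between 1.32 and 3.08. In complete media + IgG, replicate 2 had 499 CPM of Fabp2, with the others between 332 and 367. Of these, 4 are libraries numbered 1 with a low value, and the long-gene against short-gene difference was the highest of its group in each of those 3 libraries, at 1.12, 1.29 and 1.01. Whether the length balance has a part in these values was not tested.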

How the results depend on the processing

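Against complete media, SCM kept 4 called members in each fit without 1 library. Leaving out each library in turn gave 1 to 3 members in QCM, 2 to 4 with Wnt5a, 0 to 1 for SCM against QCM and 0 to 1 for Wnt5a against SCM. In these fits, the log2 fold change against complete media changed sign for Apoa1 with Wnt5a (-0.13 to 0.09), Apoc3 in QCM (-0.03 to 0.32) and with Wnt5a (-0.28 to 0.08), Cd36 in QCM (-0.24 to 0.94), Dgat1 in SCM (-0.10 to 0.00), and Fabp2 in QCM (-0.06 to 0.13) and SCM (-0.08 to 0.07), none of which was called. Of 516 values with a library left out, 484 kept their direction and side of the threshold, as did 362 of 386 under the other alternatives.

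For SCM against QCM, 1 member, Apob, was called by DESeq2, in the fit of only the groups compared and without the libraries numbered 1. With library totals alone, 2 members were called with Wnt5a, Apoa4 (0.58) and Dgat2 (0.57) falling under the fold change cutoff. Apoa1 in QCM was called by voom (0.65) and DESeq2 (0.60), and voom did not call Dgat2 with Wnt5a (0.57). With the length covariate, 0 members were called in QCM and 0 in Wnt5a against SCM, and signs changed in QCM for Apoc3 (-0.20) and Fabp2 (-0.25) and with Wnt5a for Apoa1 (0.13) and Apoc3 (0.12). Without the libraries numbered 1, Apoa1 (0.15) and Apoc3 (0.05) changed sign with Wnt5a. The causes were not tested.

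Libraries of the same number deviated together in part. Between groups, the mean correlation of their deviations was 0.092, against -0.018 for libraries of different numbers. Of 90 same-number pairs, 34 correlated over 0.1, and 16 of 36 libraries correlated best with their own number. Whether a number stands for a shared source was not tested, and the main model has no block for it. With the replicate block, 1 member was called in SCM against QCM (Apob, 0.67) and 1 for anti-Ptk7 in SCM (Apoc3, -0.65), and Apoa1 in QCM (0.61) was also called.

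Per kilobase of coding length, the levels were 1190 CPM for Fabp1, 838 for Fabp2, 472 for Apoa1, 324 for Apoa4, 162 for Mttp, 128 for Dgat2, 121 for Dgat1, 25.6 for Apoc3 and 1.33 for Cd36, so that Dgat1 and Dgat2 changed places. Counts were lowest for Cd36, with 0 to 67 per library.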
